A study of Rattus norvegicus with 16 samples.

Results

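Somatostatin (Sst), vasoactive intestinal peptide (Vip), parvalbumin (Pvalb), calbindin (Calb1) and calretinin (Calb2) were followed in rat hippocampus, a brain region needed for memory. These 5 genes of 32754 in the count table were chosen by gene ID, and all 5 passed the filter on low counts. The IDs are ENSRNOG00000001837 for Sst, ENSRNOG00000018808 for Vip, ENSRNOG00000006471 for Pvalb, ENSRNOG00000007456 for Calb1 and ENSRNOG00000016977 for Calb2. The table lists IDs only, so the symbols are those given with the IDs when the genes were chosen. The groups were 20-month-old rats that had been exercise trained, 20-month-old rats kept sedentary, 6-month-old trained rats and 6-month-old sedentary rats. Each group held 4 libraries, 1 per rat, and the training or sedentary period lasted 10 weeks. All 16 rats were male, wild-type Fischer-344 animals, an inbred strain often used to study aging, and all had gone through behavioral tests before the tissue was taken. Library totals ran from 8630396 to 14576687 counts.

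Interneurons are the local inhibitory neurons of the hippocampus. They release the transmitter GABA and fall into classes named for the peptides and calcium-binding proteins they make. Somatostatin cells mostly contact the dendrites of principal neurons, parvalbumin cells mostly contact the cell body and the start of the axon, and many VIP cells contact other interneurons. The marker genes are not confined to these classes. Calbindin is also abundant in the granule cells of the dentate gyrus and in part of the CA1 pyramidal cells, and calretinin is made by many neurons in brain regions next to the hippocampus, such as parts of the thalamus. Both peptides act through receptors on the cell surface. Parvalbumin, calbindin and calretinin carry EF-hand domains that bind calcium ions inside the cell.

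The reference promoter table, from RefSeq on build GRCr8, held 3 of the 5 genes. Their windows of 250 bases before to 50 bases after the annotated start are shown, and Calb1 and Calb2 had no entry. A link between these sequences and the levels of the genes was not tested. Sst and Vip are textbook targets of cAMP signalling, which acts through the cAMP response element, so the element was searched for as TGACGTCA and as its core TGACG, together with the TATA box TATAAA. Both strands were searched. Matches are in capitals, and the core lies inside each match to the longer element.
Sst, chr11:90461296-90461595, plus strand: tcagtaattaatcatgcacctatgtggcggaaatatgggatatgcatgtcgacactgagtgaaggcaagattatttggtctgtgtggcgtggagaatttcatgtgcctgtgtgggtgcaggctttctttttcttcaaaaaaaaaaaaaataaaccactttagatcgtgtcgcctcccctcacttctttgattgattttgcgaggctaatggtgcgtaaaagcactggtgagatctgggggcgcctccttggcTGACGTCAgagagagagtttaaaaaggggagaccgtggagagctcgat
Vip, chr1:44470230-44470529, plus strand: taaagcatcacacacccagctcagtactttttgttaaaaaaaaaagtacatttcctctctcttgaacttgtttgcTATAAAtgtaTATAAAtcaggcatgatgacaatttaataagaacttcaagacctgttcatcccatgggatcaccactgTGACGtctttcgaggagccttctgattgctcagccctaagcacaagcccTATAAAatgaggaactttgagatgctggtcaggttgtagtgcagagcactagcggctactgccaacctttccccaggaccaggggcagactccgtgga
Pvalb, chr7:111666240-111666539, minus strand: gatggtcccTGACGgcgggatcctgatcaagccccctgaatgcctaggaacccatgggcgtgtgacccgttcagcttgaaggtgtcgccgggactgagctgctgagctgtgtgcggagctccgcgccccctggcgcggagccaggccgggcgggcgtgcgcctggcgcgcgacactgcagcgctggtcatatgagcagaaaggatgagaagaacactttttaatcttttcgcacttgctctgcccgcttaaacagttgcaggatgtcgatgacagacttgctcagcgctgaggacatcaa
The Sst window held the 8-base TGACGTCA with its first base at position 3 of the annotated transcript, a sequence found in 1.83% of the 33465 promoter windows. The Vip window held TGACG with its first base at position -97 from the annotated start and TATAAA at 3 places, positions -175, -165 and -48. The Pvalb window held TGACG with its first base at position -241. Of all windows, 21.2% held TGACG and 14.2% held TATAAA on either strand. These matches describe the letters only.

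Training came with a higher level of Sst and a much lower level of Calb2, while Pvalb, Vip and Calb1 did not pass when both ages were averaged. Of the 5 genes, 1 was called higher and 1 lower in trained rats, where a call means an adjusted p below 0.05 in edgeR's quasi-likelihood test over 15035 genes. Over all genes tested, 15.9% were called higher and 18.0% lower in this comparison. For 5 genes, 1 call in each direction is close to these shares, so the count does not set the 5 genes apart. Ranked by p among the 15035 genes, Sst was at 4633 and Calb2 at 817. Log2 fold changes in trained over sedentary rats had a median of -0.23 over the 5 genes and -0.02 over all genes. In bulk tissue, fewer cells of a type and less RNA per cell cannot be told apart. Levels are given as CPM (read counts scaled to a common library size) after TMM scaling of the libraries, which is not divided by transcript length, so levels are compared between groups for 1 gene and not between genes.

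Sst stood at 168, 125, 125 and 115 CPM in old trained rats, against 111, 67.2, 120 and 43.4 CPM in old sedentary rats. In young rats it stood at 158, 128, 134 and 153 CPM with training, against 146, 76.1, 102 and 98.1 CPM in sedentary animals. The trained libraries sat together, and all 8 lay above the median of the sedentary ones, but the groups overlapped at both ages. The 2 lowest values belonged to old sedentary replicates 4 and 2. Group means were 133 ± 23.8 CPM in old trained and 85.4 ± 36.2 CPM in old sedentary rats, and 143 ± 14.3 CPM in young trained and 105 ± 29.2 CPM in young sedentary rats (SD, n = 4 each). Averaged over age, Sst was 1.46-fold higher in trained rats, a log2 fold change of 0.54 (SE 0.19, 95% interval 0.14 to 0.94, edgeR adjusted p = 0.0361). The change was 0.64 (SE 0.26, adjusted p = 0.094) in old rats and 0.44 (SE 0.26, adjusted p = 0.252) in young rats, neither past the threshold in edgeR.

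The Sst call lay close to the threshold. It was lost without young trained replicate 1 (log2 fold change 0.53, adjusted p = 0.0581) or 4 (0.54, adjusted p = 0.0609), without old trained replicate 1 (0.49, adjusted p = 0.0678), without young sedentary replicate 2 (0.49, adjusted p = 0.067), 3 (0.55, adjusted p = 0.054) or 4 (0.53, adjusted p = 0.0663), without old sedentary replicate 2 (0.49, adjusted p = 0.0728), and without a filter on low counts (0.54, adjusted p = 0.0759). With 1 surrogate variable, a covariate estimated from all genes, the value was -0.02 (SE 0.25, adjusted p = 0.979). That variable lay between 0.109 and 0.201 in the 8 trained libraries, at 0.0272 in old sedentary replicate 3, at 0.14 and 0.134 in young sedentary replicates 1 and 3, and between -0.514 and -0.104 in the other 5 sedentary libraries. It thus follows training in part, and a fit with it cannot tell that part from training itself. Without old sedentary libraries 1, 2 and 4 it was 0.29 (SE 0.17, adjusted p = 0.294). In old rats the change passed with the DESeq2 Wald test (0.65, adjusted p = 0.0436) and with limma voom (0.75, adjusted p = 0.0281). These called 23.3% and 24.9% of all genes. It also passed with the replicate number as a block (0.69, adjusted p = 0.0202) and without old sedentary replicate 3 (0.85, adjusted p = 0.0269), a fit that called 29.7% of all genes. It did not pass in old rats fitted alone with edgeR (0.64, adjusted p = 0.193), without a filter on low counts (0.65, adjusted p = 0.168) or with DESeq2 size factors (0.65, adjusted p = 0.0924).

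**Figure D1:**
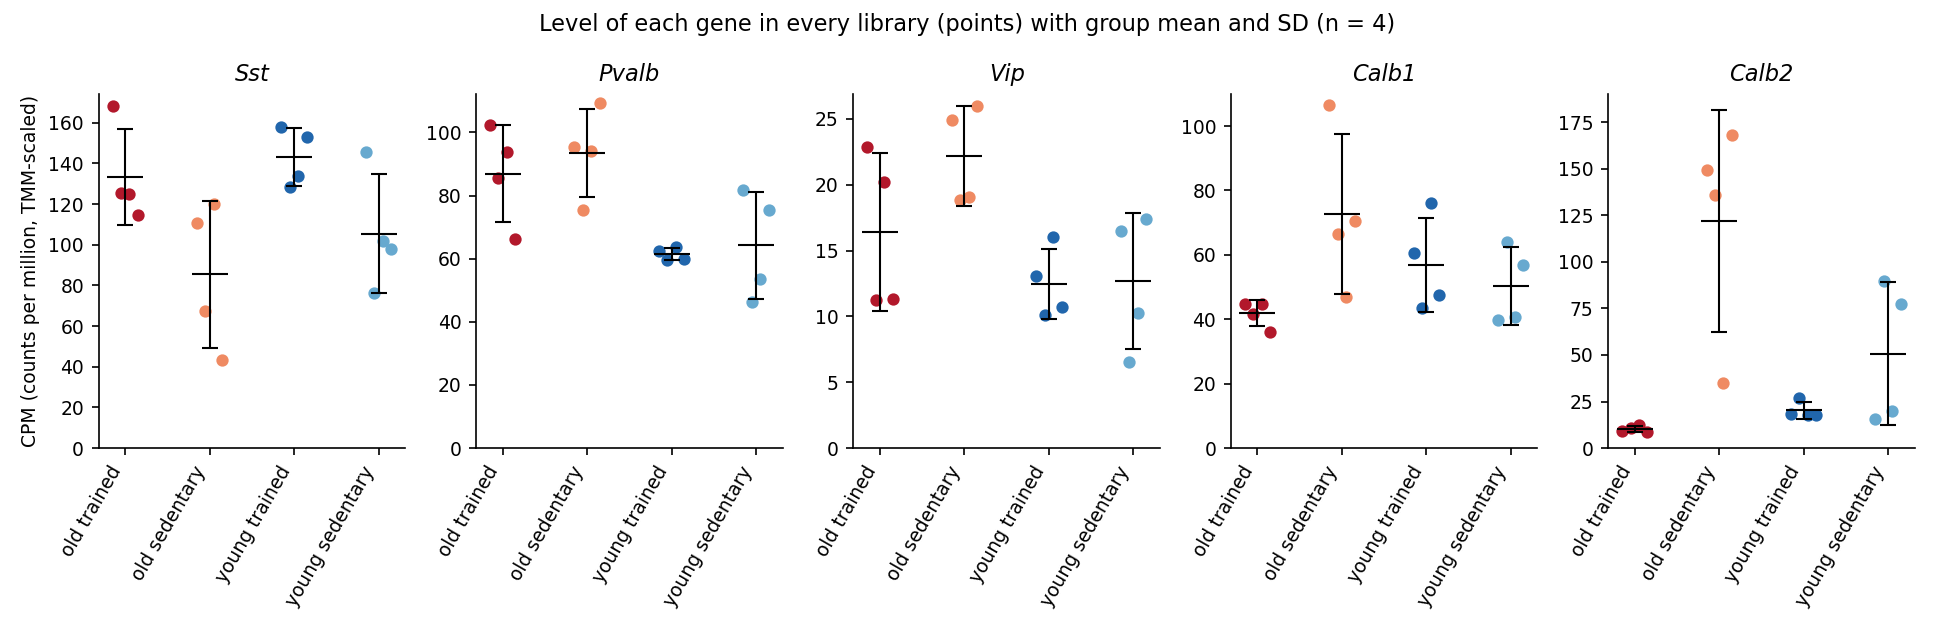
CPM of the 5 genes (y axes, each from 0) in the 16 libraries, with 1 point per rat and the mean and SD of each group of 4. Calb2 lay between 8.63 and 26.9 CPM in the 8 trained libraries and between 15.4 and 168 CPM in the 8 sedentary ones, and Pvalb was higher in old than in young rats.

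Vip was counted 96 to 297 times per library. It stood at 22.8, 11.2, 20.2 and 11.3 CPM in old trained rats, against 24.9, 18.8, 19.0 and 26.0 CPM in old sedentary rats. In young rats it stood at 13.1, 10.1, 15.99 and 10.7 CPM with training, against 16.5, 6.56, 10.2 and 17.4 CPM in sedentary animals. Trained and sedentary libraries overlapped at both ages. The log2 fold change for training was -0.23 (SE 0.21, 95% interval -0.67 to 0.21, edgeR adjusted p = 0.423) averaged over age, -0.45 (SE 0.29, adjusted p = 0.295) in old rats and -0.01 (SE 0.30, 95% interval -0.65 to 0.63, adjusted p = 0.985) in young rats. The interval in young rats leaves room for changes of either sign.

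Pvalb was close in trained and sedentary rats of the same age. It stood at 102, 85.4, 93.8 and 66.3 CPM in old trained rats, against 95.5, 75.4, 94.0 and 109 CPM in old sedentary rats. In young rats it stood at 62.6, 59.6, 63.7 and 59.9 CPM with training, against 81.6, 46.3, 53.7 and 75.4 CPM in sedentary animals. The young trained values lay within the range of the young sedentary ones. Their coefficient of variation was 3.28%, against 26.4% in young sedentary rats. The log2 fold change for training averaged over age was -0.08 (SE 0.12, edgeR adjusted p = 0.61), and its 95% interval, -0.33 to 0.16, is the narrowest of the 5 genes in that comparison.

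Calb1 was lower with training in old rats. It stood at 44.7, 41.7, 44.7 and 36.1 CPM in old trained rats, against 107, 66.6, 47.1 and 70.5 CPM in old sedentary rats, and the groups did not overlap. Over all genes tested, 11.3% were lower without overlap in these 2 groups. The gap was narrow at its edge, where old sedentary replicate 3 lay close to the old trained values. Means were 41.8 ± 4.05 CPM in old trained and 72.7 ± 24.8 CPM in old sedentary rats (SD, n = 4 each). The log2 fold change was -0.80 (SE 0.23, 95% interval -1.30 to -0.30, edgeR adjusted p = 0.0222), or 1.74-fold lower. In young rats Calb1 stood at 60.5, 43.6, 76.0 and 47.4 CPM with training, against 39.8, 64.1, 40.6 and 56.9 CPM in sedentary animals, and the groups overlapped. Means were 56.9 ± 14.7 CPM in young trained and 50.3 ± 12.1 CPM in young sedentary rats (SD, n = 4 each), and the change was 0.17 (SE 0.23, adjusted p = 0.632).

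Of the 5 genes 2 were called for training in old rats, Calb1 and Calb2, both lower, where 12.6% of all genes tested were called lower. Over the 5 genes the median log2 fold change was -0.45, against -0.01 over all genes. The Calb1 call was lost without old sedentary replicate 1 (-0.55, adjusted p = 0.0773), the library with the highest Calb1, without old trained replicate 2 (-0.79, adjusted p = 0.0515) or 4 (-0.73, adjusted p = 0.0627), and with 1 surrogate variable (0.09, SE 0.31, adjusted p = 1.00). Without old sedentary libraries 1, 2 and 4 it was -0.17 (SE 0.30, adjusted p = 0.962), a fit in which 0 of all genes were called for training in old rats and in which the 1 remaining old sedentary library is assumed to vary like the other groups.

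Calb2 showed the largest changes of the 5 genes in the comparisons of training. It stood at 8.97, 10.5, 12.3 and 8.63 CPM in old trained rats, against 149, 136, 34.9 and 168 CPM in old sedentary rats. These groups did not overlap, and even the lowest old sedentary library, replicate 3, was above the highest old trained one. In young rats it stood at 18.1, 26.9, 18.0 and 17.7 CPM with training, against 15.4, 90.0, 19.9 and 77.5 CPM in sedentary animals. The young sedentary libraries were of 2 kinds, with replicates 1 and 3 at trained levels and replicates 2 and 4 well above them. The counts behind these levels were 75 to 171 in old trained and 381 to 1925 in old sedentary libraries. Group means were 10.1 ± 1.68 CPM in old trained and 122 ± 59.7 CPM in old sedentary rats, and 20.2 ± 4.51 CPM in young trained and 50.7 ± 38.5 CPM in young sedentary rats (SD, n = 4 each).

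In old rats Calb2 was 12.0-fold lower with training, a log2 fold change of -3.59 (SE 0.58, 95% interval -4.83 to -2.34, edgeR adjusted p = 0.00128). Averaged over age it was -2.46 (SE 0.39, adjusted p = 0.000352). In young rats it was -1.34 (SE 0.54, adjusted p = 0.0976) and did not pass. Without young sedentary replicate 1, a library low in Calb2, the value was -1.63 (adjusted p = 0.0448), in a fit that called 13.2% of all genes. Without young sedentary replicate 2, a library high in Calb2, it was -0.88 (adjusted p = 0.287), the value nearest 0 in the fits without 1 library. With 1 surrogate variable the averaged change was -0.36 (SE 0.21, adjusted p = 0.445), the change in old rats -0.60 (SE 0.30, adjusted p = 1.00) and the change in young rats -0.12 (SE 0.21, adjusted p = 0.73). Without old sedentary libraries 1, 2 and 4 the change in old rats was -1.77 (SE 0.76, adjusted p = 0.571) and the averaged change -1.56 (SE 0.45, adjusted p = 0.0488).

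**Figure D2:**
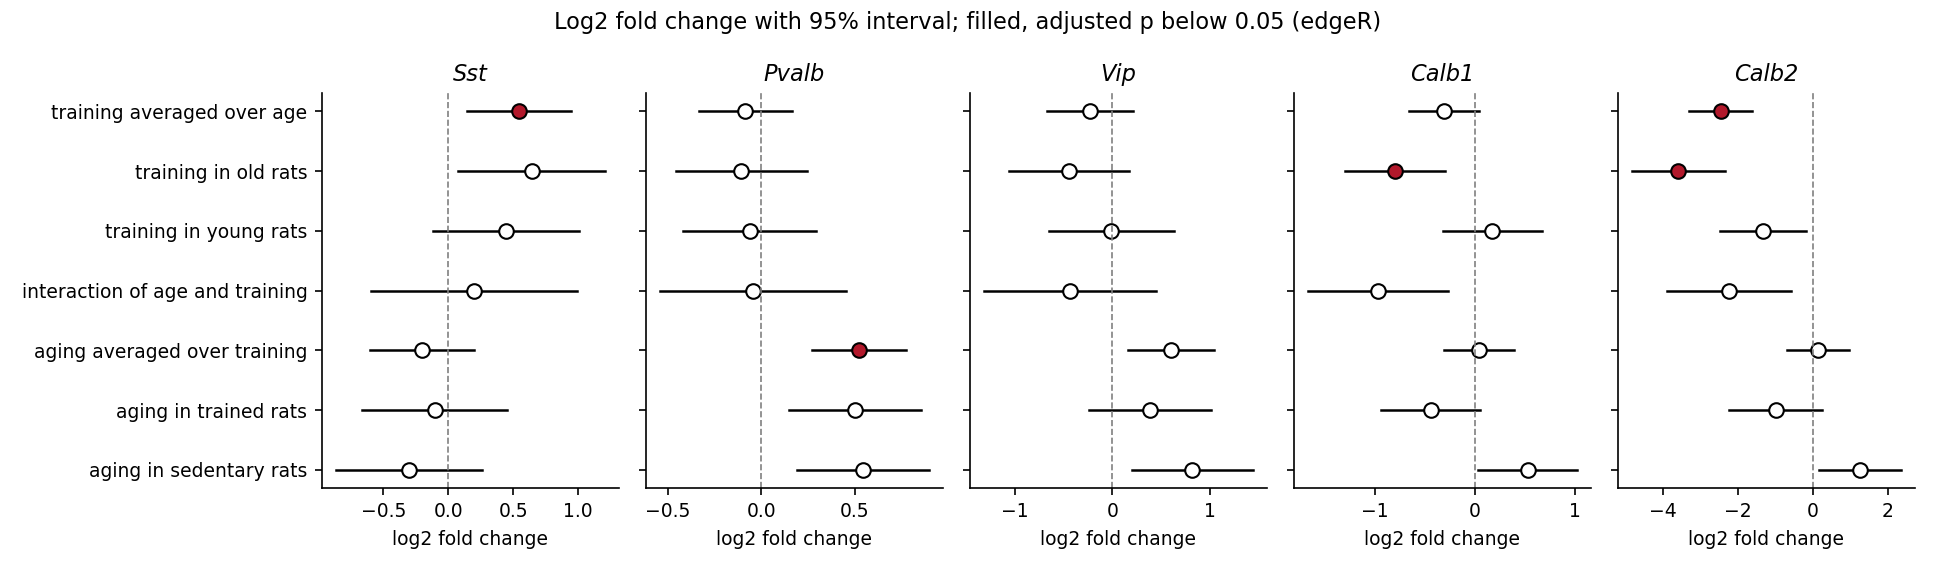
Log2 fold change (x axes, which differ in range) of each gene in the 7 comparisons, as points with 95% intervals; filled points passed an adjusted p below 0.05. Training gave a value above 0 for Sst and below 0 for Calb2 when averaged over age, and aging averaged over training gave 0.52 for Pvalb.

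The high Calb2 values fell in libraries that also stood apart over the whole transcriptome. The first principal component of log2 CPM over all genes held 46.9% of the variance. Old sedentary replicates 1, 2 and 4 lay at 49.7, 55.9 and 52.9 on it and young sedentary replicates 2 and 4 at 29.3 and 25.7, and these are the 5 libraries with the highest Calb2. Old sedentary replicate 3 lay at 12.7 and young sedentary replicates 1 and 3 at 0.69 and 1.34, while the 8 trained libraries lay between -39.8 and -18.9. The lowest Sst values were also in libraries high on this component, at 43.4 CPM in old sedentary replicate 4, 67.2 CPM in old sedentary replicate 2, 76.1 CPM in young sedentary replicate 2 and 98.1 CPM in young sedentary replicate 4, although old sedentary replicate 1 had 111 CPM. Calb1 was highest in old sedentary replicate 1. The 5 genes are themselves among those that form the component, and the part of this component in the changes with training was not tested. In a fit without those 5 sedentary libraries, added after the data were seen, Calb2 was at -1.78 for training in old rats, -0.80 averaged over age and 0.18 in young rats. Because those 5 libraries are the highest in Calb2, leaving them out also narrows its spread. P-values of Calb2 from that fit are therefore not given. In the same fit Sst was at 0.17 averaged over age (SE 0.14, adjusted p = 0.514) and Calb1 at -0.17 in old rats (SE 0.25, adjusted p = 0.945). That fit keeps 1 old and 2 young sedentary libraries, and the lone old one is assumed to vary like the other groups.

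**Figure D3:**
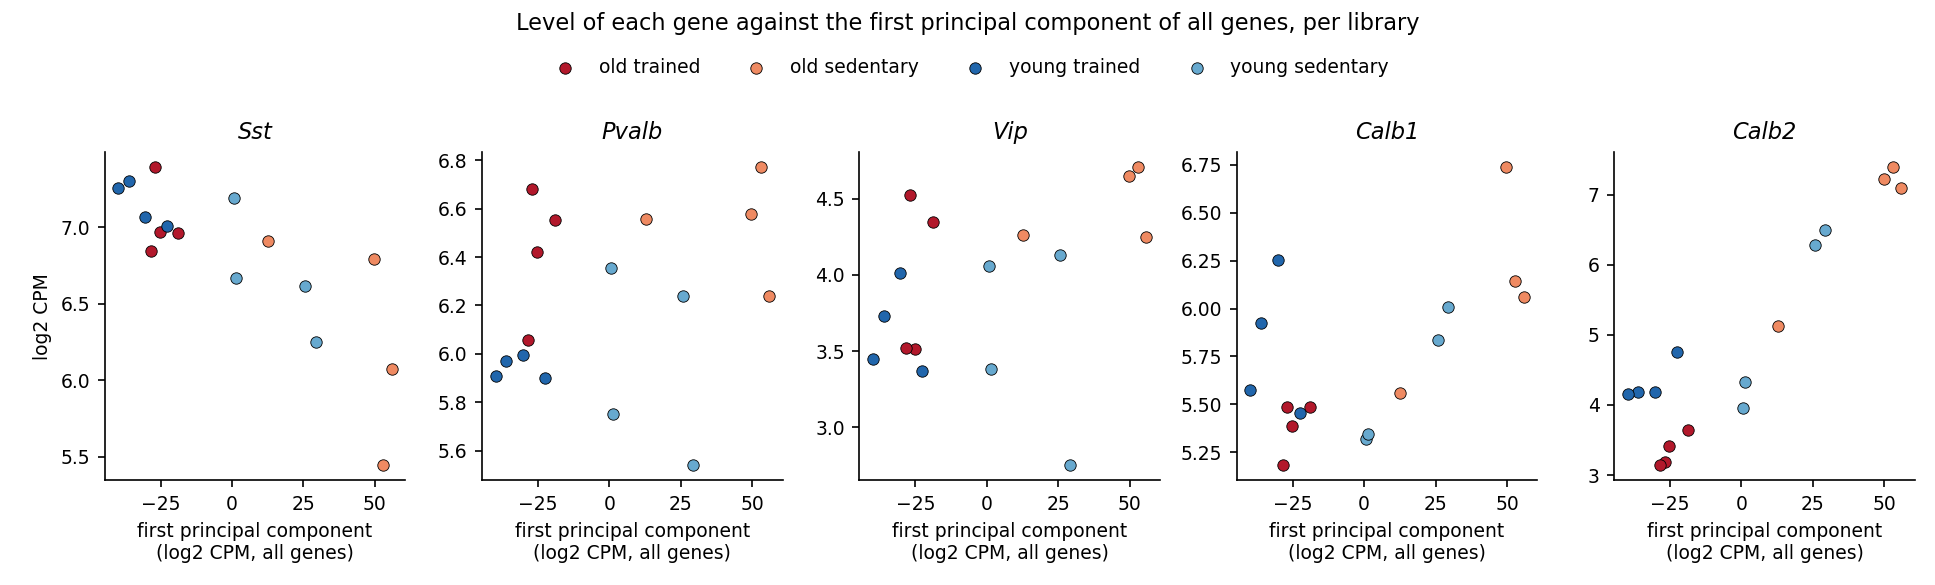
Log2 CPM of each gene (y axes, which differ in range) against the first principal component of all genes (x axis, no unit), 1 point per library. Calb2 was highest in the 5 sedentary libraries between 25.7 and 55.9 on the component, and the 4 lowest Sst values were among these.

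Whether training differed between the ages was tested by the interaction, the change in old rats minus that in young rats. edgeR called 0 of the 5 genes and 0 of all genes (0%), with 2 of the 5 at an unadjusted p below 0.05, and the DESeq2 Wald test and limma voom also called 0 of the 5. Over all genes the DESeq2 Wald test called 38. The largest interactions were -2.25 for Calb2 (SE 0.77, 95% interval -3.90 to -0.59, adjusted p = 0.281) and -0.97 for Calb1 (SE 0.33, 95% interval -1.67 to -0.27, adjusted p = 0.281). Without old sedentary replicate 3 that of Calb1 was -1.13 (adjusted p = 0.048), in a fit that called 582 of all genes (3.84%) for the interaction. For Sst the interaction was 0.20 (SE 0.37, 95% interval -0.60 to 0.99), an interval that leaves room for differences of either sign. In young rats alone edgeR called 0 of the 5 genes for training, with 1 at an unadjusted p below 0.05, where 17.1% of all genes were called. DESeq2 and limma voom called 0 there too, where they called 18.7% and 29.2% of all genes.

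Pvalb rose with age. Averaged over training it was 1.44-fold higher in old rats, a log2 fold change of 0.52 (SE 0.12, 95% interval 0.27 to 0.77, edgeR adjusted p = 0.0123), and it was the 1 called gene of the 5, where 5.51% of all genes were called higher. The median log2 fold change with age was 0.13 over the 5 genes and 0.01 over all genes. Means were 87.0 ± 15.4 CPM in old trained and 61.4 ± 2.02 CPM in young trained rats, and 93.5 ± 13.9 CPM in old sedentary and 64.3 ± 16.9 CPM in young sedentary rats (SD, n = 4 each). All 4 old trained libraries lay above all 4 young trained ones, as did 8.47% of all genes. In sedentary rats 3 of 4 old libraries lay above the highest young one, and old sedentary replicate 2 did not. The change was of like size within each training state, at 0.50 (SE 0.17, adjusted p = 0.0924) in trained and 0.54 (SE 0.17, adjusted p = 0.0904) in sedentary rats. Neither passed in the edgeR fit to all 16 libraries. Leaving out any 1 library kept the averaged call, with values from 0.45 to 0.59 and adjusted p up to 0.0332, and with 1 surrogate variable it was 0.55 (adjusted p = 0.044). Without old sedentary libraries 1, 2 and 4 the value was 0.53 and did not pass (SE 0.15, adjusted p = 0.146), and without the 5 sedentary libraries high on the first component it was 0.49 (SE 0.14, adjusted p = 0.162). In trained rats fitted alone with edgeR, where 7.4% of all genes were called, Pvalb passed (0.49, SE 0.11, adjusted p = 0.0268). In sedentary rats it passed with the DESeq2 Wald test (0.54, adjusted p = 0.0397), which called 5.72% of all genes there. It did not pass in sedentary rats fitted alone with edgeR (0.55, SE 0.19, adjusted p = 0.249) or with limma voom (0.49, adjusted p = 0.147).

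Vip had a higher mean in old rats without passing the test. Averaged over training its log2 fold change was 0.60 (SE 0.21, 95% interval 0.16 to 1.05, edgeR adjusted p = 0.0765). It passed with the DESeq2 Wald test (0.59, adjusted p = 0.0319). In sedentary rats all 4 old libraries, at 18.8 CPM or more, lay above all 4 young ones, at 17.4 CPM or less, as did 4.30% of all genes, and the change was 0.82 (SE 0.29, adjusted p = 0.134). In trained rats the groups overlapped and the change was 0.38 (SE 0.30, adjusted p = 0.465). Mean levels were 16.4 ± 6.01 CPM in old trained and 12.5 ± 2.66 CPM in young trained rats, and 22.2 ± 3.78 CPM in old sedentary and 12.7 ± 5.16 CPM in young sedentary rats (SD, n = 4 each).

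Sst, Calb1 and Calb2 were not called for age. For Sst the averaged change was -0.20 (SE 0.19, 95% interval -0.60 to 0.19, edgeR adjusted p = 0.519). For Calb1 and Calb2 the estimates had opposite signs in the 2 training states. Calb1 was at -0.44 (SE 0.23, adjusted p = 0.272) in trained and 0.53 (SE 0.23, adjusted p = 0.218) in sedentary rats. Calb2 was at -0.99 (SE 0.58, adjusted p = 0.329) in trained and 1.26 (SE 0.51, adjusted p = 0.188) in sedentary rats. These differences between training states are the same interaction given above, which was not called.

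Every old trained library had less Calb2 than every young trained one, which held for 8.48% of all genes. The spread of Calb2 in the fit was set mostly by the sedentary groups, and in a fit to the 8 trained libraries alone its age change was -1.003 (SE 0.17, adjusted p = 0.00791), in a fit that called 1075 of 14530 genes (7.4%). Without old sedentary replicate 3, Calb2 (1.56, adjusted p = 0.0373) and Calb1 (0.68, adjusted p = 0.0483) passed for age in sedentary rats, in a fit that called 2007 of all genes (13.2%). With all libraries edgeR called 0 of the 5 genes for age in trained rats, with 1 at an unadjusted p below 0.05, and 0 in sedentary rats, with 4. The DESeq2 Wald test called 0 and 1 in these comparisons, and limma voom 0 in both. Over all genes tested edgeR called 4.98% in trained and 1.51% in sedentary rats. The DESeq2 Wald test called 7.85% and 5.72%, and limma voom 8.97% and 3.04%.

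**Figure D4:**
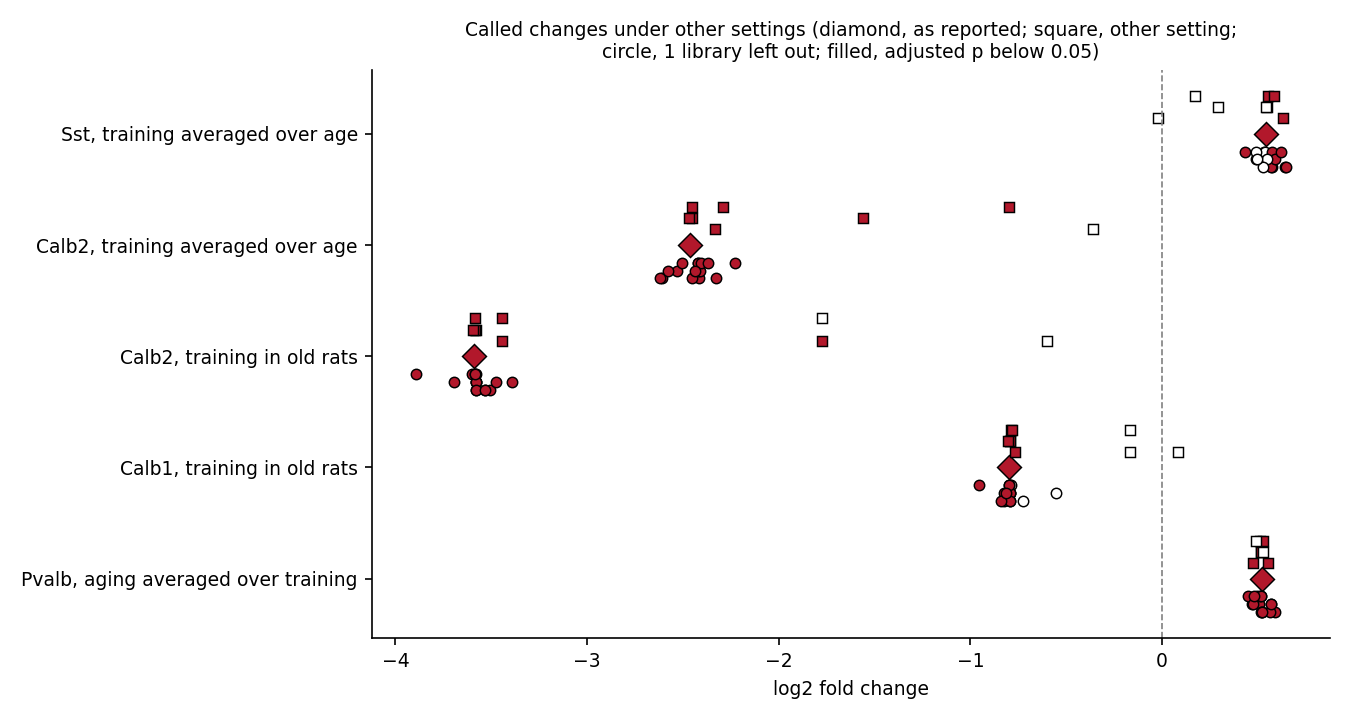
Log2 fold change (x axis) of the 5 called changes under every setting tried. Diamonds are the values as reported, squares other settings and circles fits without 1 library, filled where the adjusted p was below 0.05. Pvalb stayed between 0.45 and 0.59 in the circles. In the square for 1 surrogate variable, Sst averaged over age (-0.02) and Calb1 in old rats (0.09) turned sign. Calb2 moved toward 0 in that fit, both averaged over age (-0.36) and in old rats (-0.60).

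By mean level, from low to high, Sst ran through old sedentary, young sedentary, old trained and young trained rats, and each group overlapped the next. Pvalb and Vip shared the order young trained, young sedentary, old trained and old sedentary. For Pvalb the step between old trained and young sedentary rats was larger than the SD of either group, and the other steps were not larger than the wider SD. For Vip no step between neighbours was larger than the wider of their 2 SDs. Calb1 ran through old trained, young sedentary, young trained and old sedentary rats, again with no step beyond the wider SD. Calb2 ran through old trained, young trained, young sedentary and old sedentary rats. The Calb2 step between old and young trained rats exceeded both SDs and their libraries did not overlap, while that between old and young sedentary rats exceeded both SDs although their libraries overlapped. All 5 genes varied more between rats of a group than most genes did. The biological coefficient of variation in the fit was 16.5% for Pvalb, 22.6% for Calb1, 25.9% for Sst, 28.0% for Vip and 49.8% for Calb2, against a median of 11.5% over all genes.

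Pvalb and Vip varied together between rats of the same group. With each group's mean removed, their log2 CPM had Pearson r = 0.865 over the 16 libraries (permutation p = 0.00013, adjusted p = 0.0013 over 10 pairs of genes, 2-sided). Spearman rho was 0.909 (permutation p = 1e-04, adjusted p = 0.001). Both genes deviated the same way in 15 of 16 libraries, old sedentary replicate 3 being the exception. Without the 2 libraries farthest from the median of Pvalb, r was 0.758 (adjusted p = 0.0034). Young sedentary replicate 2 was lowest in its group for both genes, at 46.3 CPM Pvalb and 6.56 CPM Vip. Over the 16 libraries with group differences left in, each was among the 2 genes closest to the other of 13386 compared, with r = 0.889 between them.

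No other pair passed after adjustment over the 10 pairs. Sst and Calb2 had r = -0.639 (permutation p = 0.0628, adjusted p = 0.209) and rho = -0.574 (permutation p = 0.0525, adjusted p = 0.175), and deviated the same way in 4 of 16 libraries. Calb1 and Calb2 had r = 0.652 (permutation p = 0.0609, adjusted p = 0.209) and rho = 0.615 (permutation p = 0.0513, adjusted p = 0.175), with 11 of 16 libraries deviating the same way. Sst with Pvalb gave r = 0.32 and Sst with Vip r = 0.287, both with an adjusted permutation p = 0.618. Without the 2 libraries farthest from the median of Sst they were 0.772 (adjusted permutation p = 0.0568) and 0.655 (adjusted permutation p = 0.0809). Vip and Calb1 had r = 0.233 (adjusted permutation p = 0.625), which passed without the 2 libraries farthest from the median of Vip (r = 0.557, adjusted p = 0.0245). The other 4 pairs had r between -0.17 and 0.0353.

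**Figure D5:**
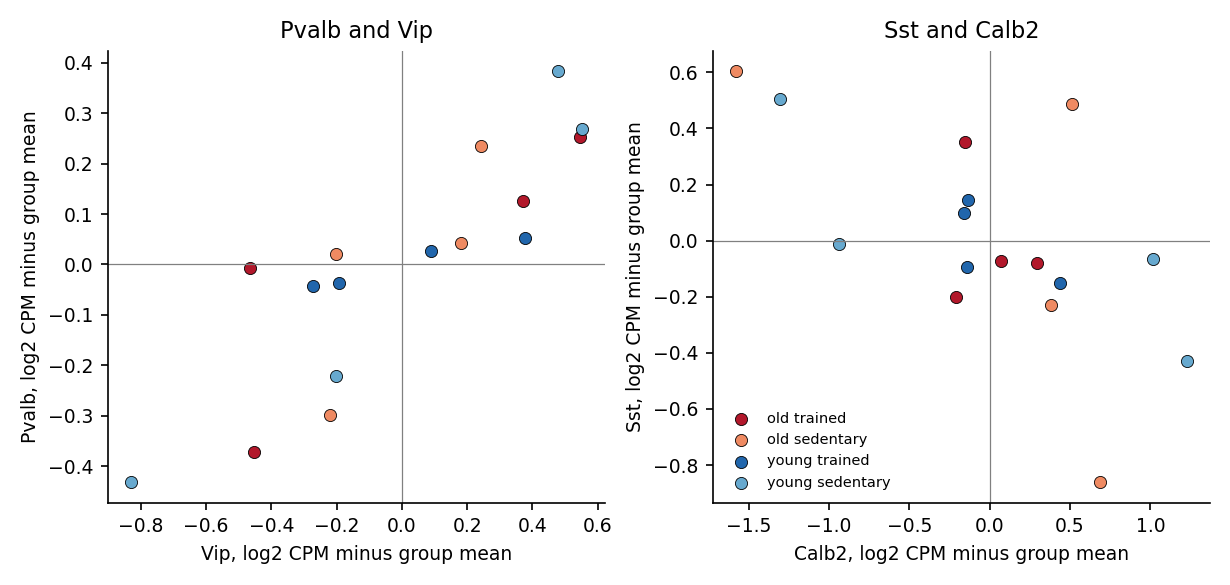
Log2 CPM minus the group mean of Pvalb against Vip (left) and of Sst against Calb2 (right), 1 point per library, coloured by group. Pvalb and Vip deviated the same way in 15 of 16 libraries (r = 0.865), and Sst and Calb2 in 4 of 16 (r = -0.639).

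Many genes shared the pattern of Calb2 and few that of the others. Among 13386 genes averaging 1 or more in log2 CPM, 93 had a Pearson r of at least 0.9 with Calb2 over the 16 libraries and 123 had an r of -0.9 or lower. The closest was ENSRNOG00000007551, with r = 0.985, and its median was 13.0 CPM in old trained and 82.9 CPM in old sedentary libraries. For Sst 20 genes reached 0.9, the closest being ENSRNOG00000001057 with r = 0.958. For Pvalb, Vip and Calb1 the count was 0, with highest r of 0.89, 0.889 and 0.882. The files do not pair these IDs with names. The libraries share group and depth differences, so the r values describe likeness only.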

How the data were processed

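Poly(A) RNA from bulk hippocampus was sequenced on an Illumina HiSeq, per the labels' protocols. The deposited values are raw counts per Ensembl gene ID, which were not normalized by the authors; the submitters' processing notes list the aligner TopHat2 2.1.1, the counter HTSeq, the build Rnor_6.0 and also DESeq2, Trimmomatic, FastQC and SAMtools. Whether counting used strand is not stated, so reads of overlapping or antisense genes cannot be told apart from those of the 5 genes. The labels' protocols state that 5 libraries were made per condition and 10 were run per lane; 4 per group are analysed here. No label ties a library to a lane, so an effect of lane was not tested. The replicate numbers are rats, per the labels. The tests of training and age set a difference between groups against the spread between libraries of different rats. No 2 libraries of a group agreed within sampling noise (chi-square test of counts over genes).

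Of 32754 IDs, 15035 passed filterByExpr and were tested with edgeR 4.0.16 in R 4.3.3: TMM, 1 mean per group over 16 libraries (12 residual degrees of freedom), glmQLFit (robust) and glmQLFTest, 2-sided, with Benjamini-Hochberg adjustment over all genes tested. A standard error is the log2 fold change divided by the square root of F, and 95% intervals use the test's degrees of freedom. log2 CPM used a prior count of 2. Correlations used 100000 permutations within groups. Alternatives used DESeq2 1.42.0, limma 3.58.1 and sva 3.50.0. The genes, lists and alternatives were chosen with earlier results of these data known. The named genes are the 5 themselves and, as genes of like pattern, those with the highest r; without symbols at most 2 are named. The reference gene table (GRCr8) matched 0 of the IDs, so the lists of other interneuron genes, receptors, calcium-binding proteins and cell type markers were not tested, and the labelled tissue was not checked against markers. Promoter sequences were matched by symbol.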

Additional observations from a re-analysis of the deposited data

Results flagged for a closer look

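One value stood apart from its group. Calb2 in young trained replicate 2 was at 26.9 CPM, while the other 3 young trained libraries lay between 17.7 and 18.1 CPM, a gap large for 4 values by Dixon's test. It was 1 of 20 sets of 4 libraries tested, and chance flags about 1 in 20.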

How the results depend on the processing

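Of 860 single-gene values under other settings, 776 kept their direction and side of the threshold, 20 lost a call, 16 gained one and 48 turned sign, 22 of these among the 560 fits without 1 library. The causes were not tested. Training averaged over age had 2 of the 5 genes called, against 1 without a filter on low counts, 0 with 1 surrogate variable, 1 without old sedentary libraries 1, 2 and 4, 1 without the 5 sedentary libraries high on the first component, and 1 to 3 without 1 library. Training in old rats had 2, against 0 with the surrogate variable, 0 without the 3 libraries, 1 without the 5, 1 to 3 without 1 library, and 3 (Sst added) with each of the DESeq2 Wald test, limma voom and the replicate block. Training in young rats had 0, and 0 to 1 without 1 library. The interaction had 0, and 0 to 1 without 1 library. Aging averaged over training had 1, against 2 with the DESeq2 Wald test, 2 with the replicate block, 2 with the surrogate variable, 0 without the 3 libraries and 0 without the 5, and 1 in every fit without 1 library. Aging in trained rats had 0, against 1 with the surrogate variable, 2 with only the 8 libraries compared and 1 without the 5. Aging in sedentary rats had 0, against 1 with the DESeq2 Wald test and 0 to 2 without 1 library. The calls without the 5 were of Calb2, whose 5 highest libraries are those left out. They do not show that Calb2 withstands that choice.

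With 1 surrogate variable these log2 fold changes turned sign: for training averaged over age, Sst (-0.021) and Calb1 (0.29); in old rats, Sst (-0.21) and Calb1 (0.085); in young rats, Vip (0.00324). So did Sst in the interaction (-0.39), Sst (0.061), Calb1 (-0.22) and Calb2 (-0.65, adjusted p = 0.0256 in edgeR) for aging averaged over training, and Sst (0.25), Calb1 (-0.023) and Calb2 (-0.42) for aging in sedentary rats. Without old sedentary libraries 1, 2 and 4, Sst turned in the interaction (-0.28), Sst (0.045), Calb1 (-0.27) and Calb2 (-0.77) for aging averaged over training, and Sst (0.19), Calb1 (-0.10) and Calb2 (-0.55) for aging in sedentary rats. Without the 5 sedentary libraries, an alternative chosen after seeing the data, Calb1 turned for training averaged over age (0.16), Calb2 for training in young rats (0.18), Sst (-0.045) and Pvalb (0.041) in the interaction, and Calb1 (-0.11) and Calb2 (-0.00258) for aging averaged over training. Without 1 library, signs turned for Pvalb and training in old rats (-0.20 to 0.012), Pvalb (-0.17 to 0.074) and Vip (-0.22 to 0.19) and training in young rats, Sst (-0.021 to 0.41) and Pvalb (-0.18 to 0.076) in the interaction, and Calb1 (-0.081 to 0.12) and Calb2 (-0.014 to 0.35) for aging averaged over training.

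With the replicate number as a block, Vip passed for aging averaged over training (0.61, adjusted p = 0.027 in edgeR), Sst passed for training in old rats (0.69, adjusted p = 0.0202), Vip for training in young rats was 0.022, and no other call of the 5 genes changed. Over the 24 same-numbered pairs of libraries, correlations of their deviations ran from -0.24 to 0.48, and 12 were over 0.1. Pairs with different numbers were not compared, so whether the numbers pair the rats was not tested. Without the 2 libraries farthest from the median of the first gene, r was 0.772 for Sst and Pvalb, 0.655 for Sst and Vip, 0.0873 for Pvalb and Calb2, 0.557 for Vip and Calb1 and 0.125 for Vip and Calb2.

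Over all genes, training averaged over age had 5100 calls, against 227 with the surrogate variable, 1866 without the 3 libraries and 1162 without the 5. Training in old rats had 3618, against 3, 0 and 69 in those fits and 2345 with only the 8 libraries compared. Training in young rats had 2572, against 1602 with the surrogate variable, 1410 without the 5 and 4393 with limma voom. Aging averaged over training had 1585, against 492, 114 and 59 in the first 3 fits. Aging in trained rats had 748, against 1202, 1215 and 1164 in those fits, 1075 with only the 8 libraries compared, 1224 with DESeq2 and 1348 with limma voom. Aging in sedentary rats had 227, against 8, 3 and 2 in those fits, 24 with only the 8 libraries compared, 560 with the block, 891 with DESeq2 and 457 with limma voom. Without 1 library, calls ran from 1289 (without young sedentary replicate 4) to 2992 for training in young rats, from 0 to 582 (without old sedentary replicate 3) for the interaction, from 950 (without young sedentary replicate 3) to 2452 (without old sedentary replicate 3) for aging averaged over training, from 237 (without young trained replicate 4) to 1049 for aging in trained rats, and from 38 (without young sedentary replicate 3) to 2007 (without old sedentary replicate 3) for aging in sedentary rats. Counts of 75 or more per library for Calb2 and 96 or more for Vip limit the precision of their single values.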
